A study of Caenorhabditis elegans with 4 samples.

Results

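The binding of LIN-13 along chromosome II of Caenorhabditis elegans is described here from chromatin immunoprecipitation followed by sequencing (ChIP-seq). The members are the peaks that the combined peak list places on chromosome II, 461 of the 2769 peaks in that list, and they were chosen by position only. They are set against the 1933 combined-list peaks of the other autosomes, I, III, IV and V. The series holds 2 LIN-13 ChIP samples and 2 input DNA samples, all from L4 hermaphrodites of strain OP49 grown at 20 °C. Every sample shares the same genotype. It has the unc119(ed3) mutation and the transgene wgIs49, in which lin-13 carries TY1, EGFP and FLAG tags next to unc119 as the marker. The transgene was introduced by bombardment, no other lin-13 allele is named, and whole worms were used, so the tissue in which a site was bound is unknown. Precipitation was with antibodies against GFP after crosslinking with 2% formaldehyde. Peak lists were used for ChIP replicate 1, ChIP replicate 2 and the combined list, and no peak list of the input samples was used. Whether the replicates are separate cultures is not in the labels.

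LIN-13 is a nuclear protein with many zinc fingers and belongs to the class B synthetic Multivulva genes, which act with the worm retinoblastoma protein LIN-35 to keep vulval and germline programmes silent in other cells. It has been found in a complex with the heterochromatin protein HPL-2. C. elegans chromosomes have no localized centromere. The arms of the autosomes are rich in repeats and in methylated histone H3 lysine 9, a mark with which HPL-2 is associated, while the centres hold most essential genes. A peak is placed in an arm when its midpoint lies in the outer 25% of the length on either side, and in the centre otherwise.

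Chromosome II held the second highest density of LIN-13 peaks among the autosomes, close to that of chromosome IV and well below that of III. The combined list had 30.2 peaks per Mb on II (exact Poisson 95% interval 27.5 to 33.1), against 28.8 (27.5 to 30.1) on the other autosomes together. The ratio of these densities was 1.05 (exact 95% interval 0.946 to 1.16), so the difference lay within counting error. The other autosomes differ widely among themselves, with 50.2 peaks per Mb on III, 27.7 on IV, 21.6 on V and 20.4 on I. Set against each in turn, II had 0.602 times the density of III (0.534 to 0.678), 1.09 times that of IV (0.958 to 1.24), 1.40 times that of V (1.22 to 1.59) and 1.48 times that of I (1.28 to 1.72). Only the interval for IV spans 1. Without chromosome III among the other autosomes the ratio was 1.30 (1.16 to 1.45).

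The replicates gave the same place in this order. Replicate 1 had 216 peaks on II, or 14.2 per Mb, and a ratio to the other autosomes of 1.04 (0.896 to 1.21). Replicate 2 had 124 peaks, or 8.12 per Mb, and a ratio of 1.10 (0.896 to 1.34). All intervals cover the counting error of independent peaks, and since peaks lie in clusters the true uncertainty is larger. In the 15 full bins of 1 Mb, chromosome II had 30.1 ± 10.8 combined peaks per bin (SD, n = 15 bins). The other autosomes together had 28.6 ± 15.4 (SD, n = 65 bins), a spread that also holds the differences between these chromosomes. Singly, the SD over bins was 5.57 on I, 19.0 on III, 6.87 on IV and 7.86 on V. Peaks of II thus fell more unevenly over bins than those of I, IV and V, and less so than those of III. The read depth is unknown for every list. A lower count in replicate 2 therefore cannot be read as weaker binding.

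Peaks covered 290 kb of chromosome II, or 1.90% of its length, against 1.77% on the other autosomes. Their median width was 461 bp (quartiles 324 and 694 bp), against 459 bp (323 and 718 bp). The deposited measure of strength is the authors' q-value, given here as −log10 q, so that a larger value is a stronger peak. The lists reach down to different limits, with a lowest value on II of 3.87 in replicate 1, 3.99 in replicate 2 and 3.63 in the combined list. The median −log10 q was 5.69 (quartiles 4.46 and 8.42) on II, against 6.20 (4.52 and 9.53) on the other autosomes together. Singly, it was 6.25 on I, 6.63 on III, 5.79 on IV and 5.78 on V, so II lay close to IV and V. The strongest 10% of the whole combined list took in 9.11% of the II peaks and 10.0% of the peaks on the other autosomes, a difference of -0.926 percentage points (Newcombe 95% interval -3.63 to 2.31).

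Binding along the chromosome was uneven, with 1 dense stretch inside the left arm and 1 in the right arm next to its border with the centre. The bin from 2 to 3 Mb held the most combined peaks, 55. The bin from 11 to 12 Mb, which crosses that border, held 50. Next came 14 to 15 Mb with 36. The emptiest full bins were 0 to 1 Mb and 3 to 4 Mb with 15 peaks each, and 4 to 5 Mb with 23. The median bin held 28 combined peaks.

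The dense bins differed in how far the replicates held them. The bin from 11 to 12 Mb had 31 peaks in replicate 1 and 17 in replicate 2, the highest count of all bins in both. The bin from 2 to 3 Mb had 19 in replicate 1 and 10 in replicate 2. Of its 55 combined peaks only 8, or 14.5%, overlapped a peak in both replicates, against 16 of 50, or 32.0%, from 11 to 12 Mb. The bin from 14 to 15 Mb had 21 and 13 peaks in the replicates, and 12 of its 36 combined peaks, or 33.3%, were in both. The lowest share of all bins was from 7 to 8 Mb, where 2 of 27 combined peaks, or 7.41%, were in both. Across the 15 full bins, the counts of replicate 1 and replicate 2 had a Spearman correlation of 0.854. This is a description over bins that share the same libraries.

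**Figure D1:**
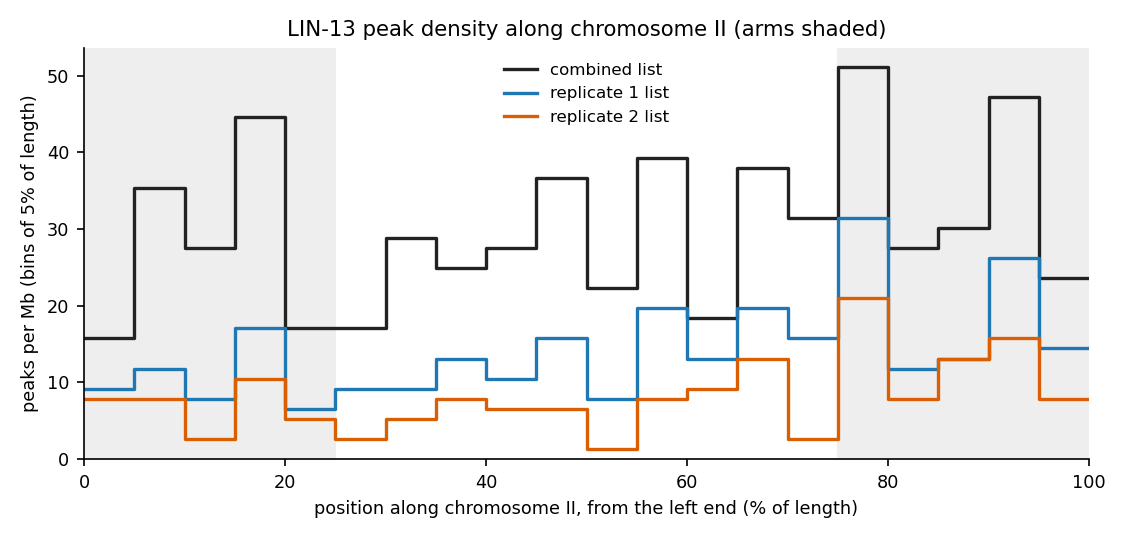
Peaks per Mb (y axis) in bins of 5% of the length of chromosome II (x axis, from the left end), for the combined list, replicate 1 and replicate 2, with the arms shaded. All 3 lists are highest in the bin from 75% to 80% of the length, with 51.1, 31.4 and 21.0 peaks per Mb.

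The right arm of chromosome II had more peaks per Mb than its left arm or its centre, though in the combined list the contrast with the left arm was within counting error. In the combined list the right arm held 137 peaks, or 35.9 per Mb (30.1 to 42.4), the left arm 107, or 28.0 per Mb (23.0 to 33.9), and the centre 217, or 28.4 per Mb (24.8 to 32.5). The right arm thus had 1.28 times the density of the left arm, with an interval that spans 1 (0.987 to 1.66). The contrast was larger in the replicates. Replicate 1 had 74 peaks in the right arm and 40 in the left, a ratio of 1.85 (1.24 to 2.79). Replicate 2 had 50 and 26, a ratio of 1.92 (1.17 to 3.22). A sparse left arm enters the first of these, since in replicate 1 the left arm had 10.5 peaks per Mb, against 13.4 in the centre. Its share of the replicate 1 peaks, 18.5% on II, against 27.5% on the other autosomes, was also lower, by a difference of -8.95 points (-14.5 to -2.59). This is not particular to II, since the left arm share was 14.4% on V. It was 27.9% on I, 31.9% on III and 31.6% on IV.

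On none of the other autosomes was the right arm the densest compartment of the combined list. It was at or below the left arm on I, III and IV, with 19.4 against 19.6 peaks per Mb on I, 43.6 against 63.3 on III and 23.1 against 31.6 on IV. On chromosome V the right arm, with 22.6, exceeded the left arm but not the centre, with 25.4. Of all peaks on a chromosome, the right arm held 29.7% on II (Wilson 95% interval 25.7% to 34.0%), against 22.9% on the other autosomes, a difference of 6.85 percentage points (Newcombe 95% interval 2.42 to 11.5). With arms taken as the outer 20% the difference was 3.31 points (-0.608 to 7.60), an interval that spans 0. With the outer 25%, it was 12.2 points in replicate 1 (5.54 to 19.2) and 18.5 points in replicate 2 (9.48 to 28.0). Of 13 differences of shares computed for the combined list with these arms, that of the right arm was the only one whose interval did not span 0. The intervals were not adjusted for that number, and the right arm was singled out after its values were seen.

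The right arm was densest just inside its border. The part of the right arm before 12 Mb, 0.552 Mb long, had 34 combined peaks, or 61.5 per Mb (42.6 to 86.0), 39.8 per Mb in replicate 1 and 27.2 per Mb in replicate 2. From 12 Mb to the end the arm had 31.6 combined peaks per Mb (25.8 to 38.3), with an interval that includes the 28.4 of the centre. The same part had 15.9 per Mb in replicate 1 (11.9 to 20.9), against 13.4 in the centre, and 10.7 in replicate 2 (7.47 to 14.9), against 6.29 in the centre. With the bin from 11 to 12 Mb left out of II, and nothing left out of the other autosomes, the difference in right arm share was 2.19 points (-2.20 to 6.96). That bin was picked as the fullest that reaches into the right arm, and 34 of its 50 peaks lie in that arm. The difference therefore had to fall, and the value shows only how much of the share this bin holds. The bin from 14 to 15 Mb, wholly inside the arm, held 36 peaks, and leaving it out was not tried, so the fall is not particular to 1 bin.

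Taken over both arms, chromosome II had 244 of its 461 combined peaks in arms, or 52.9% (48.4% to 57.4%), against 48.6% on the other autosomes and 49.9% in the whole list. The difference from the other autosomes was 4.30 points (-0.778 to 9.33), and 6.87 points (1.53 to 12.2) without III among them. It was 3.22 points (-4.18 to 10.5) in replicate 1 and 14.5 points (4.69 to 23.7) in replicate 2. No peak crossed either border of the centre.

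Peaks of the right arm were also found in both replicates more often. This was so for 44 of 137 peaks, or 32.1% (24.9% to 40.3%), in the right arm, against 21 of 107, or 19.6% (13.2% to 28.1%), in the left arm and 41 of 217, or 18.9% (14.2% to 24.6%), in the centre. The right arm exceeded the left arm by 12.5 points (1.31 to 22.9) and the centre by 13.2 points (3.99 to 22.7). Its median −log10 q moved with this, at 6.09, against 5.80 in the left arm and 5.61 in the centre, and the part of peak strength in the difference was not tested. Median widths were 491 bp in the right arm, 390 bp in the left arm and 480 bp in the centre.

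**Figure D2:**
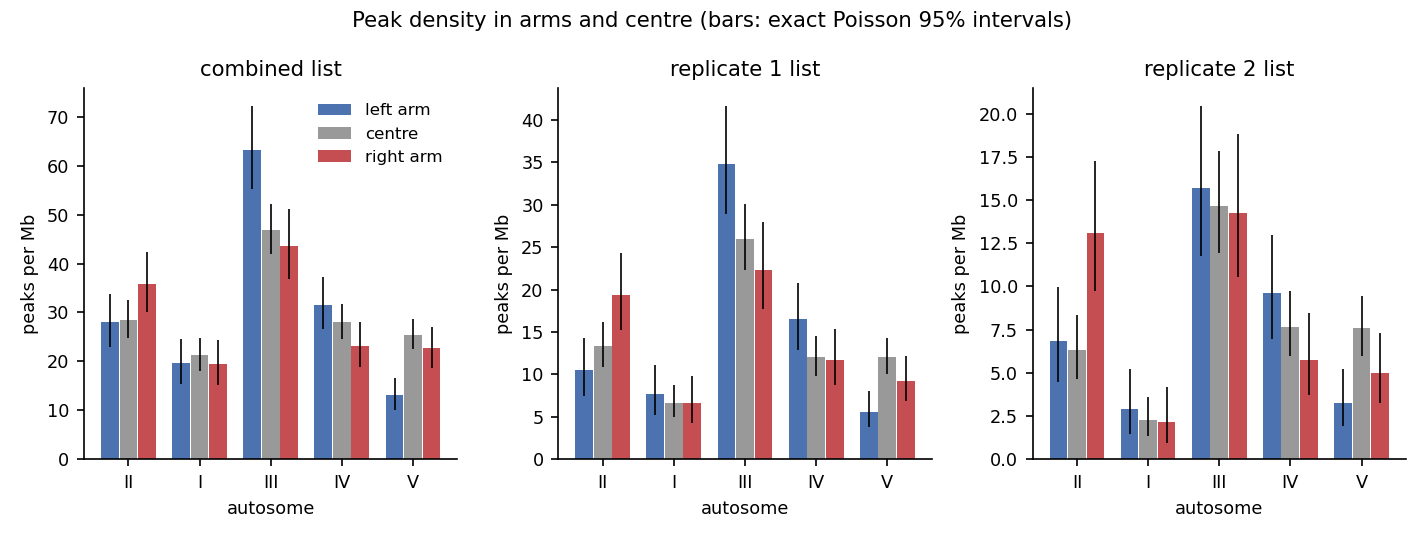
Peaks per Mb (y axis) in the left arm, centre and right arm of each autosome (x axis), for the 3 lists in separate panels with their own scales. Bars start at 0 and error bars are exact Poisson 95% intervals. On II the right arm is the highest of the 3 compartments in every list, with 35.9, 19.4 and 13.1 peaks per Mb.

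The leading region of chromosome II is the strongest of the whole combined list. It lies in the centre of the chromosome, from II 10541870 to 10554160 on build WS180, and is 12291 bp wide. Its −log10 q was 163. Replicate 1 covered 73.7% of it with 4 peaks. The largest of these, 4918 bp wide with a −log10 q of 60.5, lay at its left end, and the other 3 had 5.27, 11.2 and 14.0. Replicate 2 covered 71.4% of it with 2 peaks, 7765 bp wide with 62.6 and 1043 bp wide with 9.00. In both replicates the left part was thus the strong one. The first place holds for the combined list only. A chromosome I peak had 176 in replicate 1 and 220 in replicate 2, and it is absent from the combined list. In replicate 1 chromosome III also reached a higher value, 71.2.

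The region does not stand alone. It is the first of 4 combined peaks within 21.9 kb, of which 82.7% is covered by peaks. The neighbours measured 3003 bp with a −log10 q of 30.8, 1415 bp with 9.98 and 1366 bp with 38.3. All but the 1415 bp peak were in both replicates, and that one was in replicate 1 only. Replicate 1 held 7 peaks over this stretch and replicate 2 held 5. No annotation of build WS180 was used, so genes at this or any other region were not identified, and peaks at the lin-13 or unc119 loci were not set aside.

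**Figure D3:**
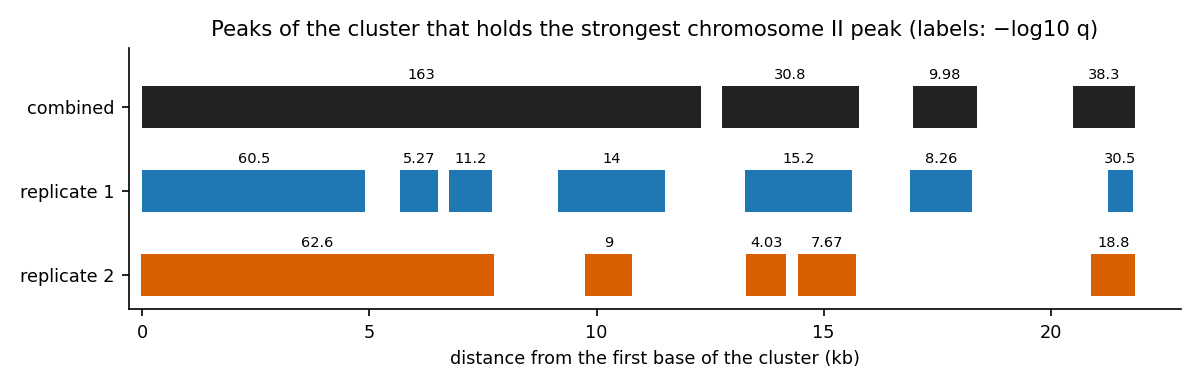
Peaks of each list over the cluster that holds the strongest chromosome II peak, as distance from its first base in kb (x axis), 1 row per list, with the −log10 q of each peak above its bar. The combined peak of 12291 bp corresponds to 4 peaks in replicate 1 and 2 in replicate 2, and the highest values, 60.5 and 62.6, stand at its left end.

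The next regions were weaker, and most were broad. The second, II 8743048 to 8747981, is 4934 bp wide, and its −log10 q was 84.8 in the combined list, up to 47.9 in replicate 1 and up to 16.9 in replicate 2. The third, II 6346365 to 6348946, is 2582 bp wide and had 55.7, 35.3 and 26.5 in the same lists. The strongest peak of the right arm, II 14598269 to 14602925, is 4657 bp wide with 44.4 in the combined list. It was held by 3 peaks in replicate 1, up to 13.7, and by 1 in replicate 2 with 8.89, which covered only 23.4% of it. The strongest peak of the left arm was lower than those of the centre and the right arm, at II 3518476 to 3519600, where the combined list had 28.5, replicate 1 had 19.1 and replicate 2 had 11.7.

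Not every strong peak was broad. The fourth by strength, II 10174211 to 10174737, is 527 bp wide and had a −log10 q of 44.5, with 26.1 in replicate 1 and 17.7 in replicate 2. The eighth, II 5844535 to 5845198, is 664 bp wide with 39.9, 24.4 and 13.6. The other 8 of the 10 strongest measured 1266 bp or more, and all 10 were in both replicates. Between them lay II 11545074 to 11547662 with 41.0, II 14404880 to 14408111 with 41.0, II 5543326 to 5544591 with 39.1 and II 10562368 to 10563733 with 38.3. Over all 461 peaks, the Spearman correlation of width with −log10 q was 0.507, as a description, since both come from the same peak call.

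Broad regions of 1000 bp or wider made up 50 of the 461 peaks on II, or 10.8% (8.32% to 14.0%), against 12.8% on the other autosomes and 12.5% in the whole list. The difference from the other autosomes was -1.98 points (-4.95 to 1.49). These 50 peaks covered 97.3 kb, which is 33.6% of all bases under peaks on II. The widths nearest the line were 979, 986 and 999 bp below it and 1004, 1004 and 1028 bp above it. The centre held 25 broad peaks, the right arm 16 and the left arm 9. Of the 16 peaks of 2000 bp or wider, 11 lay in the centre, 5 in the right arm and 0 in the left arm, where the widest peak measured 1513 bp.

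Broad peaks were found in both replicates far more often than narrow ones. This held for 35 of 50, or 70.0% (56.2% to 80.9%), of the broad peaks on II, against 71 of 411, or 17.3% (13.9% to 21.2%), of its narrower peaks. On the other autosomes the shares were 52.8% (46.6% to 58.9%) for broad and 16.2% (14.5% to 18.0%) for narrower peaks. The broad peaks of II had a median −log10 q of 20.3, against 13.6 for those on the other autosomes. The share for broad peaks was 31.5% on I, 65.1% on III, 58.7% on IV and 52.9% on V. Their median −log10 q was 13.2, 18.3, 12.7 and 11.8 in the same order. The part of strength in the higher share on II was not tested. One or both replicates divided 12 of the 50 broad peaks of II into 2 or more peaks, and none of the 411 narrower ones. A narrower peak has less room for 2. On the other autosomes 31 of 248 broad peaks and 1 of 1685 narrower ones were divided. Among the wide regions so divided were II 9618703 to 9622471, 3769 bp wide with a −log10 q of 28.1, and II 6587230 to 6590194, 2965 bp wide with 29.4. The region at II 13297322 to 13299636, 2315 bp wide with 33.2, was 1 peak in replicate 1 and 2 in replicate 2.

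A few broad peaks had no counterpart in the replicates. Of the 50 on II, 6 overlapped no replicate peak, against 42 of 248 on the other autosomes. Of these 6 on II, 5 lay in the centre, which held 25 of the 50 broad peaks. The widest was II 7349618 to 7351619, 2002 bp with a −log10 q of 9.27. The others were 1070 to 1542 bp wide, with −log10 q between 4.61 and 7.77.

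**Figure D4:**
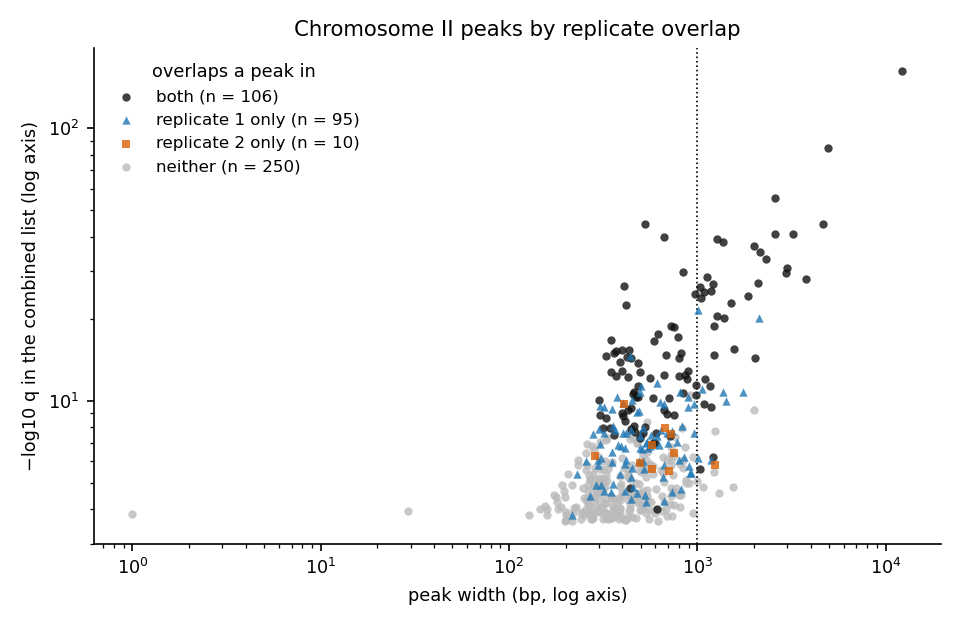
Width in bp (x axis, log scale) against −log10 q in the combined list (y axis, log scale) for the 461 chromosome II peaks, marked by the replicates in which they were found. The dotted line marks 1000 bp. The 250 peaks found in neither replicate sit at the bottom, at or below a −log10 q of 10.5.

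Neighbouring peaks lay close together on chromosome II. Of its 461 peaks, 260, or 56.4% (51.8% to 60.9%), had a neighbour less than 5 kb away, against 58.9% on the other autosomes and 55.5% in the whole list. The difference from the other autosomes was -2.47 points (-7.53 to 2.50). They formed 94 clusters, of which 52 were pairs, 27 had 3 peaks and 15 had 4 or more. The remaining 201 peaks stood alone. Among the other autosomes it was 69.5% on III, the densest, 58.1% on IV, 55.2% on V and 41.7% on I.

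Gaps between neighbours were strongly skewed. On II the median gap was 12.8 kb (quartiles 2.12 and 42.2 kb) and the mean gap 32.5 kb, so the median was 0.395 times the mean. The same ratio was 0.521 on I, 0.326 on III, 0.411 on IV and 0.361 on V, which puts II in the middle of the autosomes. No gap on II was shorter than 200 bp. The replicate lists hold fewer peaks. In replicate 1 the clustered share on II was 36.6% (30.4% to 43.2%), against 48.1% on the other autosomes. The difference was -11.6 points (-18.5 to -4.20). Singly, the replicate 1 shares were 32.7% on I, 57.7% on III, 44.7% on IV and 42.1% on V, so II lay between I and V. The difference without III was not computed. In replicate 2 the clustered share on II was 33.1% (25.4% to 41.7%), against 36.5%, a difference of -3.43 points (-12.2 to 6.18).

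The largest cluster held 9 peaks in 23.6 kb of the left arm, at II 2452458 to 2476065. Its strongest peak had a −log10 q of 26.1 and the other 8 had 3.86 to 8.42. Only 2 of the 9 overlapped a replicate peak, and those were in both replicates. The second cluster, II 5330141 to 5350663, had 7 peaks in 20.5 kb, up to 14.3, and again 2 in both replicates and 5 in neither.

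The other large clusters varied in how fully the replicates held them. The one at II 1320334 to 1334320 had 6 peaks, with −log10 q of 26.8, 20.2 and 12.2 for the 3 found in both replicates, and 2 more in replicate 1. The one at II 11974521 to 11980376 had 5 peaks in 5.86 kb, 3 in both replicates and 2 in replicate 1 only. The equally large one at II 1131667 to 1142587 had 1 in both, 1 in replicate 1 only and 3 in neither. The one at II 14242202 to 14251933 had 6 peaks, of which 2 were in both replicates, the stronger with 24.7. The one at II 14036391 to 14044579 had 5 peaks, of which 2 were in both replicates, with 23.8 and 7.03. Over all 94 clusters, 42, or 44.7%, had at least 1 peak in both replicates, 12 had 2 or more, and 3 had every peak in both. In 27 clusters, or 28.7%, no peak was in a replicate.

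Clustered and lone peaks of chromosome II were found in both replicates about equally often. The shares were 58 of 260, or 22.3% (17.7% to 27.8%), for clustered peaks and 48 of 201, or 23.9% (18.5% to 30.2%), for lone peaks, a difference of -1.57 points (-9.43 to 6.07). On the other autosomes they were 24.9% and 15.2%. Lone peaks of II thus exceeded lone peaks of the other autosomes by 8.66 points (2.67 to 15.4), a comparison chosen after the values were seen. Without chromosome I, where 6.70% of lone peaks were in both replicates, the difference was 6.19 points (-0.0705 to 13.1), and with clusters defined by gaps under 10 kb it was 4.27 points, with an interval that also spans 0. Their median −log10 q was 5.68 on II, against 5.62.

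The longest stretch without a combined peak on any autosome was on chromosome II. It ran for 629 kb, from II 1425679 to 2054617, and neither replicate had a peak inside it. It ended just before the dense stretch from 2 to 3 Mb. The next longest were 315 kb, from II 9285611 to 9600991, and 275 kb, from II 3683324 to 3958602, and the last of these held 1 replicate 1 peak. The longest stretches on the other autosomes measured 621 kb on V, 382 kb on IV, 382 kb on I and 330 kb on III. In replicate 1 the gap at the same place was 696 kb and in replicate 2 it was 697 kb. Neither was the longest of the autosomes in its list. Replicate 1 had gaps of up to 1066 kb on V and 725 kb on I. Replicate 2 had up to 1400 kb on I, 907 kb on V and 849 kb on IV, and 780 kb at another place on II. Mappability and read depth along the chromosome are not known from the files, so an empty stretch cannot be told apart from one with too few mapped reads.

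With all peaks counted, the share found in both replicates on chromosome II differed from that on the other autosomes by less than counting error, but this depended on the set compared. Of the 461 peaks on II, 106 overlapped a peak of each replicate, or 23.0% (19.4% to 27.0%), against 20.9% on the other autosomes and 21.8% in the whole list. The difference from the other autosomes was 2.09 points (-1.97 to 6.51). It was 4.31 points (0.0545 to 8.87) without III among them, but 0.238 points (-3.94 to 4.75) without I. On I only 11.1% of peaks were in both replicates. In the stronger 50% of the combined list the difference was 9.30 points (1.90 to 16.7), and this setting was not tried without I. Replicate 1 was met by 43.6% of the II peaks, against 44.5% (44.7% in the whole list), and replicate 2 by 25.2%, against 24.6% (25.2% in the whole list). Replicate 1 alone met 95 peaks of II, or 20.6%, against 23.6% on the other autosomes. Replicate 2 alone met 10, or 2.17%, against 3.72%. The intervals of both differences spanned 0. The largest class was the 250 peaks of II in neither replicate, or 54.2% (49.7% to 58.7%), against 51.7% in neither on the other autosomes and 51.8% in the whole list. The making of the combined list is not stated, and nearly every replicate peak lies in it, so the lists are not independent.

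Support followed strength closely. The median −log10 q on II was 13.3 for the peaks in both replicates, 6.92 for those in replicate 1 only, 6.35 for those in replicate 2 only and 4.55 for those in neither. The strongest peak in neither replicate, II 12796813 to 12797726, had 10.5. The strongest in replicate 1 only, II 2252028 to 2253031, had 21.6, and 13.1 in replicate 1. The strongest in replicate 2 only, II 9937569 to 9937977, had 9.77, and 7.95 in replicate 2.

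At like q-values, peaks of chromosome II were found in both replicates more often in 2 groups of middle strength, while for each replicate singly the intervals of all 10 groups reached 0 or below once chromosome I was left out. For this the whole combined list was ranked by q-value and split into 10 groups. In the third strongest group, with −log10 q from 8.30 to 10.7, 20 of 38 II peaks, or 52.6%, were in both replicates, against 28.4% of 211 peaks on the other autosomes, a difference of 24.2 points (7.53 to 40.1). In the fourth group 12 of 45, or 26.7%, were, against 11.6% of 198, a difference of 15.1 points (3.15 to 29.9). Chromosome I, whose peaks were less often met in the replicates, lowers the shares of the other autosomes. Without it these differences were 18.7 points (1.66 to 35.0) and 13.2 points (0.985 to 28.2). In the other 8 groups the interval of the difference spanned 0, and the intervals were not adjusted for the 10 groups. For replicate 1 alone the interval lay above 0 in 1 of 10 groups, and for replicate 2 alone in 1 of 10. Without chromosome I it did so in 0 of 10 for each, with the II share lower in 4 groups for replicate 1 and in 5 for replicate 2. In the strongest group 40 of 42 II peaks, or 95.2%, were in both replicates, against 91.8%.

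**Figure D5:**
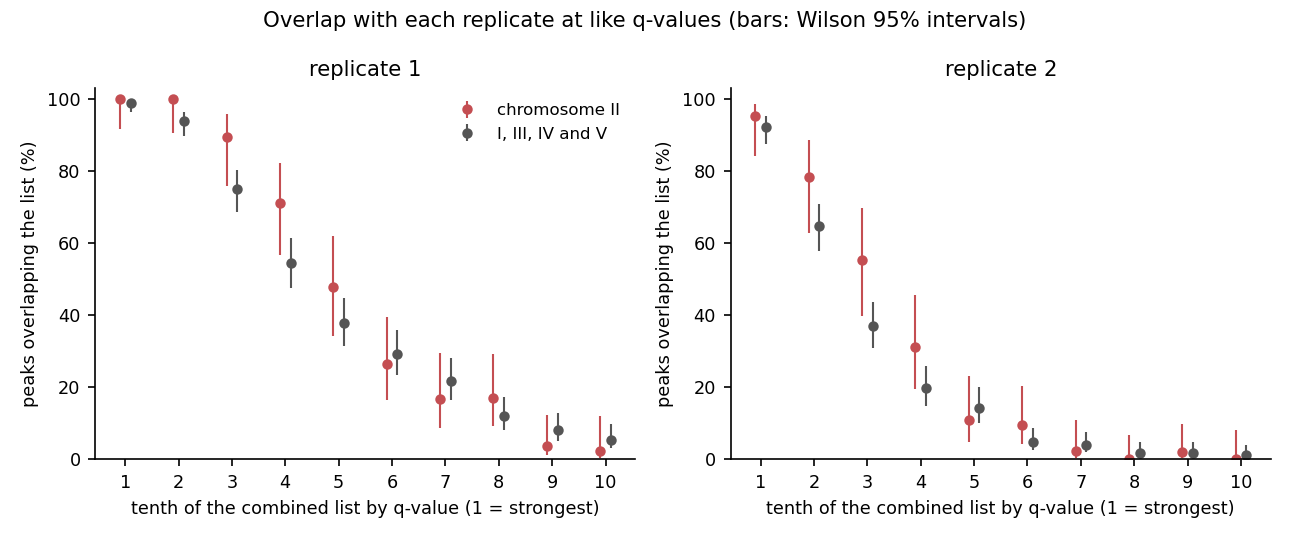
Share of combined-list peaks that overlap a peak of replicate 1 (left) or replicate 2 (right), in % (y axis), in 10 groups of the combined list by q-value with the strongest first (x axis), for chromosome II and for the other autosomes together. Error bars are Wilson 95% intervals. In the third group 55.3% of II peaks are met in replicate 2, against 37.0% on the other autosomes, where V alone has 57.1%. Without I this difference is 11.4 points (-5.86 to 27.7).

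Most replicate 2 peaks of chromosome II had a counterpart in replicate 1. Of the 124 replicate 2 peaks on II, 113, or 91.1%, overlapped a replicate 1 peak, against 84.1% on the other autosomes, a difference of 7.06 points (0.0816 to 12.2). The interval was not adjusted for the 29 differences computed over the 3 lists. Singly, the share was 97.2% of 36 peaks on I, 85.3% on III, 82.8% on IV and 79.5% on V. In the other direction 113 of 216 replicate 1 peaks, or 52.3%, overlapped a replicate 2 peak, against 45.5%, a difference of 6.82 points (-0.574 to 14.1). That share was 32.7% on I, 46.3% on III, 47.8% on IV and 48.0% on V. Over the 113 pairs the centres lay a median of 76.5 bp apart, and 90% of them lay within 353 bp. The pairs were chosen by overlap, so their centres had to lie close. The median distance was 49 bp on I, 43.25 bp on III, 74.5 bp on IV and 47.5 bp on V. The −log10 q values of the pairs had a Spearman correlation of 0.656, given as a description over pairs of the same 2 libraries. Replicate 1 had the larger value in 86 of the 113 pairs, with medians of 7.32 in replicate 1 and 5.83 in replicate 2. This is not particular to II. Replicate 1 was the larger in 28 of 35 pairs on I, 140 of 174 on III, 77 of 111 on IV and 73 of 97 on V. Depth is unknown for both lists, so these values do not compare binding between the replicates.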

How the data were processed

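Each deposited list gives the position of every peak and 1 measurement, a q-value on a linear scale. PeakSeq was the authors' peak caller and WormBase WS180 the build, per the file headers. Versions, alignment, filters and the making of the combined list are not stated. The deposited q-values were turned into −log10 q and serve only for description and ranking inside a list. No read counts were used, so depth and fold enrichment are unknown.

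Groups were taken from the titles, since the description fields of the ChIP samples read input DNA. Overlap meant at least 1 bp and was checked against bedtools 2.31.1. Peaks were placed in arms or centre by their midpoint. Chromosome length was the farthest peak end in any of the 3 lists, a lower bound. Shares carry Wilson and differences of shares Newcombe 95% intervals. Densities carry exact Poisson and density ratios exact conditional intervals. No p-values were computed, since peaks of 1 chromosome are not replicates and II is 1 chromosome against 4. Calculations used pandas 2.3.3, scipy 1.17.1 and numpy 2.4.6 under Python 3.11.15 and were tested on simulated data.

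Named peaks are the 10 strongest and the 10 widest on II, the 5 clusters with the most peaks, and the strongest peak of each compartment and replicate class. The rule also took the 3 longest gaps and the 3 fullest and emptiest 1 Mb bins. The clusters at II 11974521 to 11980376 and II 1131667 to 1142587, which tie with the fifth in size, and the one around the strongest peak were added after their values were seen, as were the broad peaks found in no replicate. The members and the rules were chosen with earlier results of these data known. The gene table at hand is of assembly WBcel235, so genes and sequences were not analysed here.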

Additional observations from a re-analysis of the deposited data

How the results depend on the processing

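Alternatives were tried for 11 results, 76 in all. In 45 the value stayed inside the 95% interval of the reported one, in 31 it moved outside, and no difference whose interval excluded 0 changed sign. The results on the right arm and on lone peaks, with all their alternatives, were chosen after the data were seen. The density on II was 13.6 peaks per Mb in the stronger 50% of the combined list and 8.12 to 14.2 in the single replicates. Its ratio to the other autosomes was 0.918 in the stronger 50%, 1.30 without III, and 1.04 to 1.10 in the replicates. The arm share was 41.6% with arms as the outer 20%, 67.5% with the outer 33%, and 52.8% to 61.3% in the replicates, and its difference from the other autosomes 3.22 to 14.5 points there. The right arm held 21.3% with the outer 20%, 38.6% with the outer 33% and 25.1% without the bin from 11 to 12 Mb. It held 41.5% of peaks in both replicates and 34.3% to 40.3% in single replicates. Its difference from the other autosomes was positive in all 10 alternatives, with 2.19 points without that bin, 18.5 for peaks in both replicates and 12.2 to 18.5 in single replicates. With arms as the outer 20% it was 3.31 points (-0.608 to 7.60). The share in both replicates was 49.5% in the stronger 50% and 18.2% where the peak centre had to lie inside a replicate peak. Counting replicate 1 or replicate 2 alone gave 25.2% to 43.6%. Its difference from the other autosomes was 9.30 points (1.90 to 16.7) in the stronger 50% and -0.941 to 0.538 for single replicates. Without I it was 0.238 points (-3.94 to 4.75) and without III 4.31 points (0.0545 to 8.87). The clustered share was 37.5% in the stronger 50%, 40.8% with gaps under 2 kb, 67.0% under 10 kb and 33.1% to 36.6% in the replicates. The broad share was 21.2% in the stronger 50%, 4.56% from 1500 bp and 3.47% from 2000 bp, and 10.2% to 12.1% in the replicates. For lone peaks the difference was 8.25 to 9.54 points for single replicates. Dropping peaks narrower than 100 bp left every result it was tried on inside its interval. The causes of these shifts were not tested, apart from those that lie in the setting itself. No paired analysis was possible because values of the input DNA samples, whose replicate numbers match those of the ChIP samples, were not used. Depth is unknown, so the absence of a weak peak from a replicate list is no measure of its binding.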

Other observations

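The combined list held 2 peaks narrower than 100 bp on chromosome II, both in its left arm and in neither replicate. One measured 29 bp, at II 2234162 to 2234190 with a −log10 q of 3.96, and one 1 bp, at II 2474536 with 3.86, inside the largest cluster. The narrowest replicate peaks on II measured 200 bp and 240 bp.

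All 124 replicate 2 peaks on II overlapped a combined peak, against 98.4% on the other autosomes. So did 211 of the 216 replicate 1 peaks on II, or 97.7%, against 97.1%. The other 5 on II were weak and none overlapped a replicate 2 peak. The strongest, II 14296105 to 14296628, had a −log10 q of 5.39 in replicate 1, and the other 4 had 3.87 to 4.06.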
